A study of Mus musculus with 24 samples.

Results

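Ddx58, Ifih1, Dhx58, Ddx60, Mavs and Tlr3 encode the proteins through which mouse cells detect viral RNA in the cytosol and in endosomes, together with the adaptor that relays the cytosolic signal. These 6 genes, chosen by name, were followed here among the 35492 gene symbols measured in CD4 T cells, and all 6 belonged to the 15720 genes with enough signal to be tested. Naive CD4 T cells (CD62L+, sorted from spleen and lymph nodes of C57BL/6J mice) were plated on anti-CD3 and anti-CD28 and transfected for 6 hours with a Control dinucleotide or with 2'3'-cGAMP, the natural ligand of STING. The labels give 80 µg per mL for both agents, while the unit is per litre in the published methods. Cells were then polarized into TH1 cells with IL-12 and anti-IL-4 or into TH9 cells with TGF-β, IL-4 and anti-IFN-γ, and total RNA was taken at 16 or 48 hours. The 24 libraries carried 8 labels of subset, time and treatment, with 3 libraries for each, described as coming from independent experiments. The age and sex of the mice, and any pooling of animals, were not used here.

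In background terms, RIG-I (Ddx58) and MDA5 (Ifih1) are helicases that bind viral RNA in the cytosol and then assemble MAVS on the mitochondrial surface, from where TBK1, IRF3, IRF7 and NF-κB switch on type I interferon. LGP2 (Dhx58) binds RNA and tunes both helicases without signaling domains of its own, DDX60 is a related helicase reported to assist them, and TLR3 detects double-stranded RNA in endosomes without MAVS. Interferon in turn raises transcription of several of the sensors, so they serve both as detectors and as interferon-stimulated genes (ISG), and STING reaches the same TBK1 and IRF3 from the DNA side.

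The subset markers went against part of the labels. Il9, the TH9 cytokine, exceeded Tbx21, the transcription factor of TH1 cells, in 8 of 12 libraries with a TH9 label and in 4 of 12 with a TH1 label. Genes that respond to interferon, which STING activation induces, did not follow the treatment labels either. Irf7 and Isg15 stood at 77.6 and 50.9 TPM in TH1 16h Control replicate 2. In cGAMP replicate 2 they stood at 2.25 and 0 TPM at TH9 16h, at 2.09 and 0 TPM at TH1 48h and at 1.59 and 1.73 TPM at TH9 48h. The treatment labels are therefore in doubt as well as the subset labels. The time labels come from the same titles and were not checked against any marker, so they cannot be taken as sound. No library was moved or left out for this reason, and every comparison of groups below holds for libraries as labelled. Levels of each gene across the 24 libraries need no label and are given first. The T cell genes Cd3e, Cd3g, Cd4, Trac and Cd28 each reached 1 TPM in 24 of 24 libraries. Among 13 markers of B, myeloid, dendritic and NK cells, the summed level ran from 1.07 to 13.4 TPM, and Lyz2, a defining myeloid gene, was listed at 0 in 23 libraries. Values are TPM (transcript abundance corrected for length and scaled to the same total in each library), which keep no read depth, so no counting error can be given. The 20 most abundant symbols of a library took 14.9 to 89.7% of its TPM, and the upper quartile of gene levels ran from 13.8 to 34.7 TPM in libraries labelled 16h and from 4.46 to 17.9 TPM in those labelled 48h. In whole-culture RNA such as this, fewer cells of a type and less RNA per cell cannot be told apart.

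Ddx58, Ifih1 and Dhx58 had the highest medians, followed by Mavs, Ddx60 and Tlr3, which was listed at 0 in 10 libraries. The median over 24 libraries was 12.4 TPM for Ddx58, 10.3 TPM for Ifih1, 9.29 TPM for Dhx58, 5.23 TPM for Mavs, 1.69 TPM for Ddx60 and 0.0653 TPM for Tlr3. Neighbours in this order mostly overlapped. Ddx58 lay above Ifih1 in 17 of 24 libraries, Ifih1 above Dhx58 in 16, Dhx58 above Mavs in 18 and Mavs above Ddx60 in 16, whereas Ddx60 lay above Tlr3 in 22. Between libraries of the same label the SD on the log2(TPM + 1) scale was 1.57 for Ifih1 and for Dhx58, 1.14 for Ddx60, 0.89 for Ddx58, 0.59 for Mavs and 0.40 for Tlr3. Unlike the medians, this SD rests on the labels in doubt. It may hold differences of subset or treatment and cannot be read as the spread of replicates, and the standard errors below share this limit.

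Ddx58 lies on chr4:40203773-40239828 of GRCm38, on the minus strand. It was present in every library. Libraries labelled TH1 16h held 11.0, 23.3 and 6.18 TPM with Control and 11.5, 25.5 and 47.2 TPM with cGAMP. Libraries labelled TH9 16h held 21.1, 39.0 and 11.5 TPM with Control and 15.9, 4.51 and 24.2 TPM with cGAMP. At both labels the 2 treatments overlapped, and the highest of all 24 values was TH1 16h cGAMP replicate 3. At TH1 48h the levels were 11.7, 22.1 and 3.89 TPM for Control and 17.7, 4.03 and 10.4 TPM for cGAMP. At TH9 48h they were 4.55, 8.91 and 7.64 TPM for Control and 20.5, 13.2 and 24.6 TPM for cGAMP. This last label was the only one at which every Ddx58 value of cGAMP lay above every value of Control.

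Ifih1 (chr2:62595798-62646255, minus strand) spanned a wider range, from 0.628 to 51.7 TPM. At TH1 16h it stood at 13.3, 44.3 and 1.63 TPM in Control and at 17.9, 9.30 and 35.8 TPM in cGAMP. At TH9 16h the values were 3.16, 32.0 and 8.62 TPM in Control against 50.9, 3.31 and 51.7 TPM in cGAMP. Within each of these labels the libraries fell far apart, and a Control library (TH1 16h replicate 2) was among the highest of the series. At TH1 48h Ifih1 stood at 2.86, 16.7 and 0.628 TPM in Control and 10.8, 3.63 and 18.3 TPM in cGAMP. At TH9 48h it stood at 0.673, 9.78 and 1.27 TPM in Control and 15.9, 2.08 and 11.3 TPM in cGAMP. The median was 5.89 TPM over the 12 Control libraries and 13.6 TPM over the 12 cGAMP libraries, with ranges that overlapped.

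Dhx58 (chr11:100694884-100704271, minus strand) was listed at 0 in TH9 16h cGAMP replicate 2 and reached 27.0 TPM in TH9 16h Control replicate 2. Its Control median of 10.1 TPM and cGAMP median of 9.29 TPM were close. Ddx60 (chr8:61928087-62038244, plus strand) ran from 0.129 TPM in TH1 48h Control replicate 3 to 11.5 TPM in TH9 16h cGAMP replicate 1, and 15 of 24 libraries held at least 1 TPM. At TH9 16h it was 0.588, 2.79 and 0.994 TPM in Control and 11.5, 0.430 and 10.9 TPM in cGAMP, so that 2 of 3 cGAMP libraries lay above all Control libraries and the third lay below them all. The Control median of Ddx60 was 1.13 TPM and the cGAMP median 3.49 TPM.

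Mavs (chr2:131234063-131248025, plus strand), the adaptor itself, was the steadiest of the expressed genes, from 0.949 to 10.5 TPM. TH9 16h Control libraries held the most, at 10.5, 8.56 and 9.79 TPM, against 3.16, 9.98 and 7.52 TPM in TH9 16h cGAMP. The Control median was 5.83 TPM and the cGAMP median 4.65 TPM. Tlr3 (chr8:45395665-45411080, minus strand) was listed at 0 in 10 of 24 libraries and reached 1 TPM in 3. These were TH1 16h cGAMP replicates 1 and 2, with 1.09 and 2.19 TPM, and TH1 48h Control replicate 3, with 1.17 TPM.

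**Figure D1:**
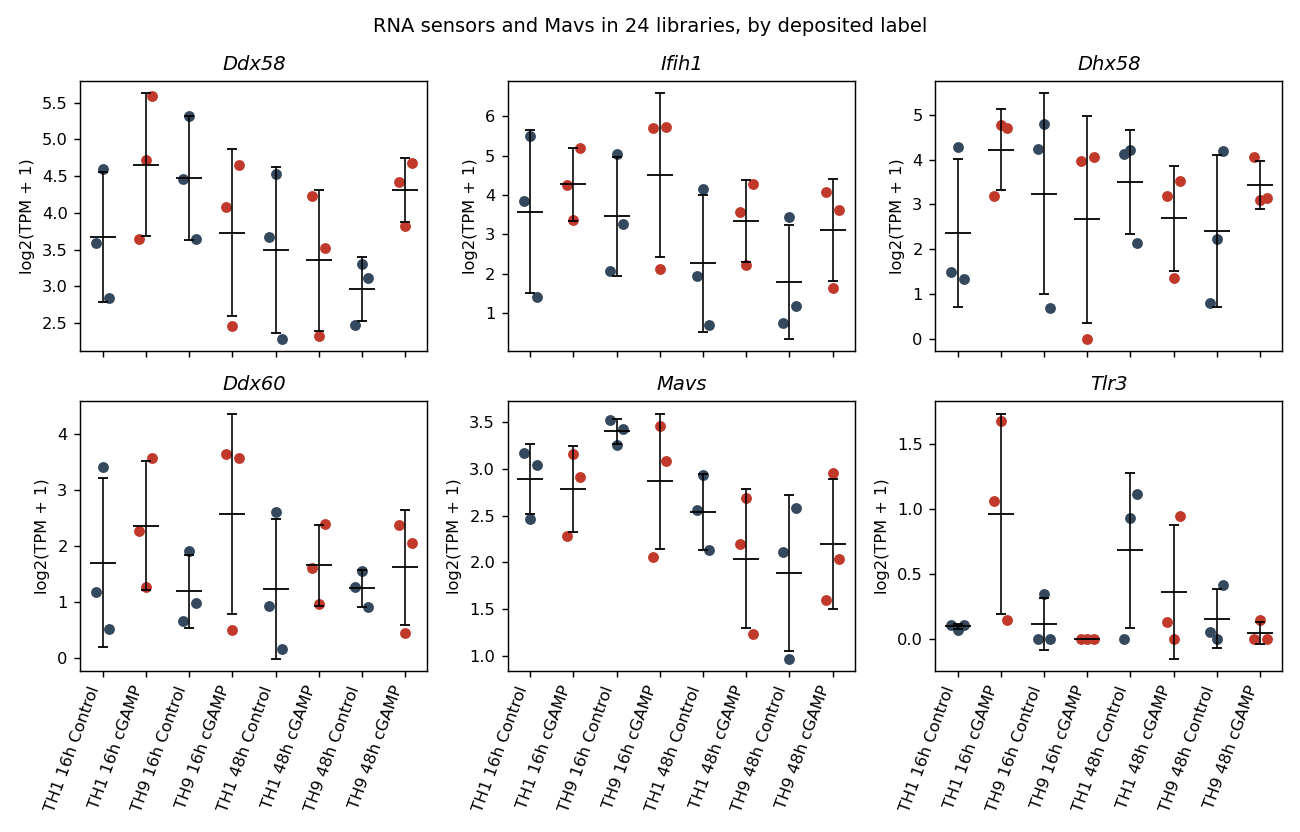
Level of each gene, as log2(TPM + 1), in the 24 libraries by deposited label (dark blue for Control, red for cGAMP, 1 point per library, dash and bars for mean and SD of 3 libraries). Libraries of the same label are widely spread for the sensors, and Tlr3 reaches 1 TPM in 3 libraries.

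The cytosolic sensors varied together from library to library, while Mavs and Tlr3 did not follow them. Over 15 gene pairs and 24 libraries, the 6 pairs among Ddx58, Ifih1, Dhx58 and Ddx60 had Pearson's r between 0.51 and 0.89 on log2(TPM + 1) values, and the 9 pairs with Mavs or Tlr3 between -0.25 and 0.28. The closest pair was Ifih1 and Ddx60, with r = 0.894 and Spearman's rho = 0.903 (permutation p = 1e-05 for both, the smallest that 100000 resamples can give, adjusted over the 15 pairs 7.5e-05 and 0.00015). Without the 2 libraries farthest from the median of Ifih1 it was r = 0.918, and it was 0.929 within the 12 libraries labelled 16h and 0.889 within the 12 labelled 48h. Of 12767 genes ranked by rho, Ifih1 was the fifth most like Ddx60, and Ddx60 was in place 16 for Ifih1.

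Ddx58 and Dhx58 were the next pair, with r = 0.783 and rho = 0.782 (permutation p = 1e-05 and 3e-05, adjusted 7.5e-05 and 0.000225). The value was r = 0.751 without the 2 farthest libraries, 0.896 at 16h and 0.710 at 48h. Ddx58 was in place 14 of the genes most like Dhx58. Ddx58 was also tied to Ifih1 (r = 0.731, rho = 0.644, permutation p = 0.00011 and 0.00081, adjusted 0.00055 and 0.00405) and to Ddx60 (r = 0.640, rho = 0.599, permutation p = 0.0008 and 0.00264, adjusted 0.003 and 0.0099). Without the farthest libraries these were r = 0.684 and 0.601.

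Dhx58 was less like the other pair. Its r with Ifih1 was 0.506 and its rho 0.475 (permutation p = 0.0118 and 0.0203, adjusted 0.0295 and 0.0585), and with Ddx60 they were 0.541 and 0.463 (permutation p = 0.00694 and 0.0234, adjusted 0.0208 and 0.0585). Both therefore passed on r and missed on rho. The relation of Ifih1 and Dhx58 fell to r = 0.419 without the 2 farthest libraries. Its adjusted p on r rose above 0.05 without TH1 16h Control replicate 2 (0.0507), replicate 3 of the same label (0.0588), TH1 16h cGAMP replicate 3 (0.0576), TH9 16h Control replicate 2 (0.0570) or TH9 48h Control replicate 1 (0.0865). The libraries share experiments and the TPM scale, so they are not fully independent, and the genes were named with earlier results of these data known. The p-values describe these libraries.

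**Figure D2:**
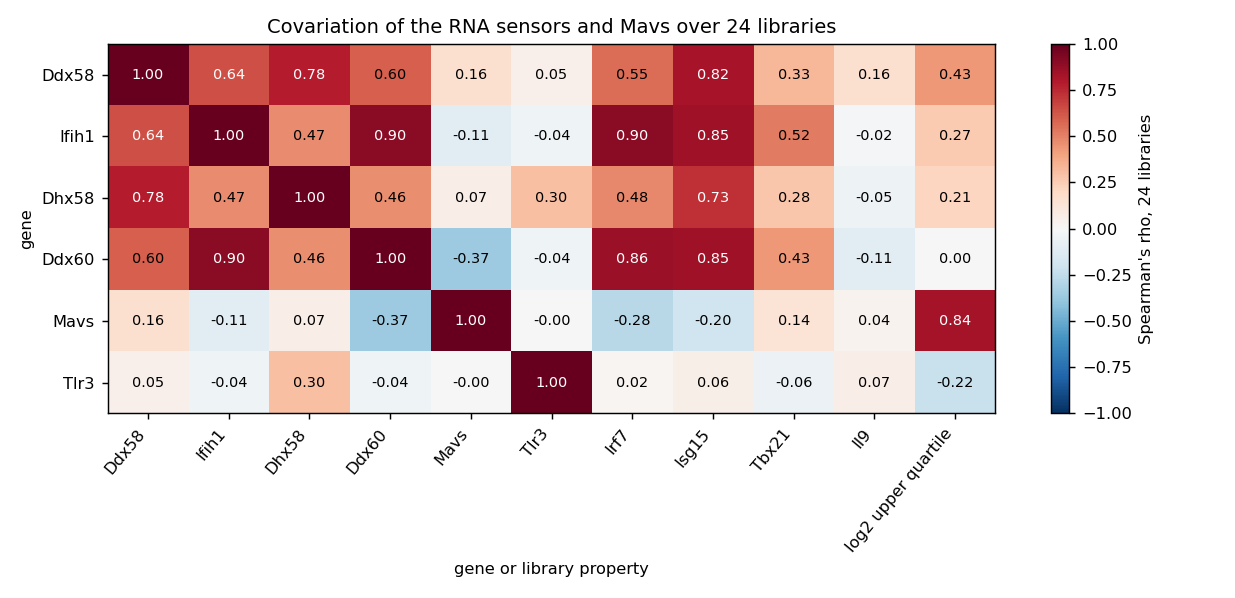
Spearman's rho over 24 libraries between the 6 genes (vertical) and the same genes, 2 interferon-stimulated genes, 2 subset markers and the upper quartile of each library (horizontal). Ifih1 and Ddx60 share the strongest tie among the 6 genes (rho 0.90), and Mavs follows the upper quartile (0.84) rather than the sensors.

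The sensors varied with interferon-stimulated genes, Ifih1 and Ddx60 more closely than Ddx58 and Dhx58 for Irf7. Irf7, the transcription factor that amplifies interferon production, had r = 0.915 with Ifih1 and 0.878 with Ddx60, but 0.625 with Ddx58 and 0.562 with Dhx58. Isg15, a ubiquitin-like modifier that interferon induces, had r = 0.850 with Ifih1, 0.844 with Ddx60, 0.839 with Ddx58 and 0.764 with Dhx58. Over 15 interferon-stimulated genes the median rho was 0.862 for Ifih1, 0.861 for Ddx60, 0.637 for Ddx58 and 0.593 for Dhx58. Against all tested genes the same medians were 0.161, -0.002, 0.288 and 0.150. Some of these 15 genes are also among the nearest partners below, and no test was made of these values.

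By rho, the 3 genes most like Ifih1 were Rnf213 (0.956), an E3 ligase with antimicrobial activity, Lgals3bp (0.951) and Slfn8 (0.950), a member of the Schlafen family. Ddx60 was closest to Ifi44 (0.941), Xaf1 (0.932) and Oasl1 (0.915), which are interferon-stimulated genes. Ddx58 was closest to Stat2 (0.890), a signal transducer of the type I interferon response, H2-Q7 (0.871), a nonclassical MHC class I gene, and Usp18 (0.863), which removes ISG15 from proteins. Dhx58 had Cacnb3 (0.887), a calcium channel subunit, Samd9l (0.850), an interferon-induced antiviral factor, and Ccrl2 (0.842), an atypical chemokine receptor. Tlr3 had no partner above 0.705, the value for Fndc3c1, followed by Fxyd4 (0.626) and LT629153.6 (0.596), each with low levels.

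Mavs stood apart from the sensors it serves. Its median rho with the 15 interferon-stimulated genes was -0.21, against 0.617 with all tested genes, and its r was -0.26 with Irf7 and -0.23 with Isg15. The genes nearest to it by rho were Zfp692 (0.951), a zinc finger protein, Cat (0.940), which is catalase, and Dap3 (0.939), a mitochondrial ribosomal protein. Mavs also followed the make-up of the library. Its r was 0.885 with the log2 upper quartile of the library and -0.87 with the share of TPM in the 20 most abundant symbols, while the r with the upper quartile was 0.403 for Ddx58, 0.257 for Ifih1, 0.0932 for Ddx60 and 0.0890 for Dhx58. Mavs had r = 0.552 with the summed markers of other cell types, against -0.06 to 0.34 for the other 5 genes, and the part of either in its level was not tested.

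Once libraries were scaled to a common upper quartile, Mavs ran opposite to Ifih1 and Ddx60. The r of Mavs with Ifih1 changed from -0.09 to -0.72 (permutation p adjusted over the 15 pairs 0.923 and 0.0003), and with Ddx60 from -0.25 to -0.70 (0.452 and 0.000475). With Ddx58 it turned from 0.167 to -0.46 (adjusted permutation p = 0.720 and 0.0359). The 6 pairs among the sensors lay between 0.54 and 0.90 after this scaling. Before it, within the libraries labelled 16h and 48h, Mavs had r = -0.59 and -0.41 with Ifih1 and -0.69 and -0.39 with Ddx60. The balance of MDA5 and its adaptor varied widely between libraries. The difference of log2(TPM + 1) between Ifih1 and Mavs ran from -1.64 in TH1 16h Control replicate 3 to 3.64 in TH9 16h cGAMP replicate 1, with a median of 0.94, and had r = 0.915 with Irf7. Ifih1 alone had r = 0.915 with Irf7, so the r of a difference that holds Ifih1 adds little on the balance. The difference between Ddx58 and Ifih1 ran from -1.62 in TH9 16h cGAMP replicate 1 to 2.41 in TH9 16h Control replicate 1, with r = -0.78 with Irf7. MDA5 transcripts exceeded RIG-I transcripts in 7 of 24 libraries.

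**Figure D3:**
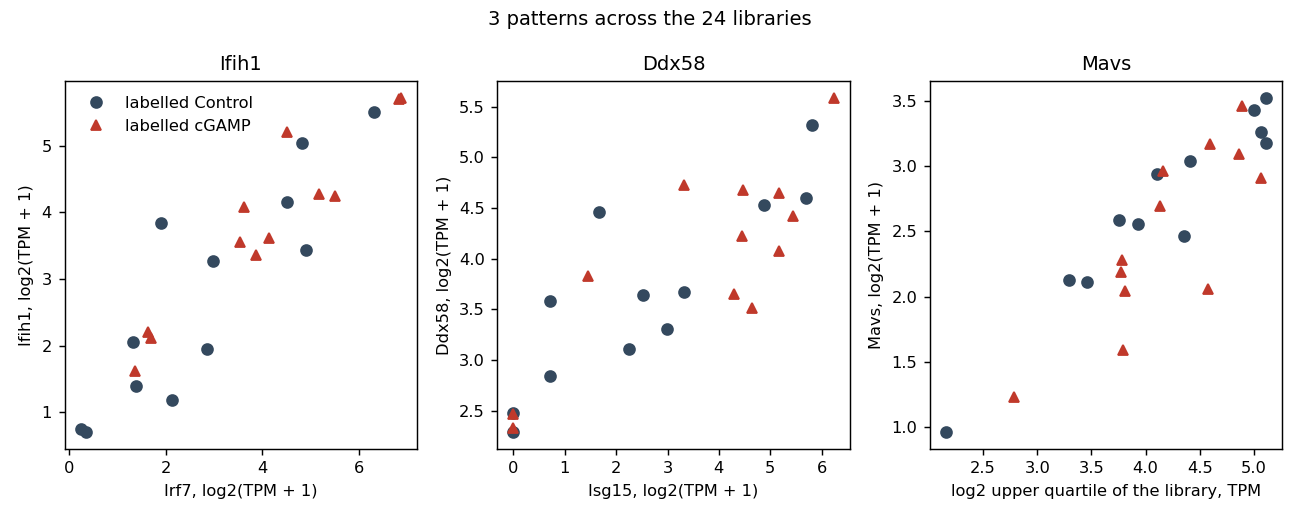
Ifih1 against Irf7, Ddx58 against Isg15 and Mavs against the upper quartile of the library, each on a log2 scale, with 1 point per library (circles for Control, triangles for cGAMP). Points of both treatment labels lie along the same bands, with r of 0.915, 0.839 and 0.885. Those labels are in doubt, so the overlap does not show that Control cells reach the same levels as cGAMP cells.

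Promoters were read for the interferon-stimulated response element (ISRE), the site through which type I interferon acts on its target genes. Windows of 300 bases (250 before to 50 after the annotated start, RefSeq, GRCm38.p6) were at hand for 5 of the 6 genes, all but Dhx58. GAAANNGAAA was searched on both strands and occurs in 3.44% of the 32851 windows of that length. Ddx58, Ifih1, Ddx60 and Mavs are printed because they set matching windows beside one without a match. The capitals mark the matches.
Ddx58: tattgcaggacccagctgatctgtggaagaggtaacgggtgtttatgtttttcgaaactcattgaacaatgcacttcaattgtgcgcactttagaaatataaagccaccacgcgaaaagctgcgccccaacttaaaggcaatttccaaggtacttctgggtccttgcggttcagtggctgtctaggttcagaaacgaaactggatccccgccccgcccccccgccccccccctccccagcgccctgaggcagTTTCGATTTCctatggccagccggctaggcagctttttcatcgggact
Ifih1: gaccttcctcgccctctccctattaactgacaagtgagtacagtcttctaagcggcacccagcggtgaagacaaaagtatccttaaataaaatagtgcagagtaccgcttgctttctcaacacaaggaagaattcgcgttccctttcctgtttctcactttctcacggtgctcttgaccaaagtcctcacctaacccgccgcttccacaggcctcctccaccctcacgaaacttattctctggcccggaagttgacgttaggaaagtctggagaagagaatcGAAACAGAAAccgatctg
Ddx60: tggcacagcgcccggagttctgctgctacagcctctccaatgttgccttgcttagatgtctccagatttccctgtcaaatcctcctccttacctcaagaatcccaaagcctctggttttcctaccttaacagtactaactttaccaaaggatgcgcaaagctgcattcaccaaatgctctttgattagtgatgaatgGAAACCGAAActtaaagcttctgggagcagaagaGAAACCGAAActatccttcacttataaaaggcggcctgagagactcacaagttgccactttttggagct
Mavs: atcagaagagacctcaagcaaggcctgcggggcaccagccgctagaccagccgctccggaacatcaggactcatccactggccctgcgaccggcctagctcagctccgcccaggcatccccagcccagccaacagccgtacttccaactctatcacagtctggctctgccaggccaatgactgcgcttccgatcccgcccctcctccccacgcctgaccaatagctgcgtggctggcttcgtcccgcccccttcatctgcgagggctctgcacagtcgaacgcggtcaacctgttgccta
The Ddx58 window (chr4:40239776-40240075, minus strand) holds 1 match on the opposite strand, with its first printed base at position 3 after the start. The Ifih1 window (chr2:62646206-62646505, minus strand) holds 1 match at position 33. The Ddx60 window (chr8:61927837-61928136, plus strand) holds 2 matches, at positions -53 and -19. The Mavs window (chr2:131233813-131234112, plus strand) and that of Tlr3 (chr8:45410331-45410630, minus strand) hold 0. The Tlr3 window lies inside the gene span given above, so its annotated start is not the outer end of that span. No window at that outer end was read. TTCNNNGAA, the gamma-activated site, occurs in 8.3% of all windows and in none of these 5. A match is a run of letters, and no binding was measured.

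Between libraries labelled cGAMP and Control, none of the 6 genes passed the test at any label. Since Irf7 and Isg15 go against these labels, this does not show that cGAMP leaves the sensors unchanged. The published analysis of this series lists Ifih1 among the genes most raised by cGAMP at all 4 labels, and Ddx60 at TH1 16h. In the order of deposit, Ifih1 and Irf7 rose and fell by turns from each library to the next. At TH1 16h, Ifih1 stood at 13.3, 44.3, 1.63, 17.9, 9.30 and 35.8 TPM in that order. Groups taken from that order were not formed or tested. Ifih1 had the largest difference averaged over the 4 labels, 1.04 on the log2(TPM + 1) scale (standard error 0.56, unadjusted p = 0.0754 from limma), followed by Ddx60 with 0.71 (standard error 0.41, unadjusted p = 0.0993 from limma). Both had a difference above 0 at all 4 labels with all libraries in, but without Control replicate 3 of the label Ifih1 turned to -0.40 at TH1 16h and Ddx60 to -0.11 at TH1 48h. Ifih1 gave 0.69 and 1.08 for TH1 at 16h and 48h, and 1.05 and 1.32 for TH9, each with a standard error of 1.11. Ddx60 gave 0.66 and 0.42 for TH1, and 1.38 and 0.38 for TH9, with a standard error of 0.83. The difference of Ddx60 at TH9 48h turned to -0.19 after upper-quartile scaling. The averaged difference was 0.38 for Dhx58 (standard error 0.56), 0.36 for Ddx58 (0.33), 0.08 for Tlr3 (0.17) and -0.21 for Mavs (0.24), and the adjusted p from limma was 1.00 for all 6.

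limma, with Benjamini-Hochberg adjustment over all 15720 genes, called 0 of the 6 genes at each label. The background was as low, with 0.00636% of all genes called at TH1 16h and 0% at each other label and in the average over labels. The single gene called at TH1 16h was Gm14648, a predicted gene that is no member and is named only because it stood alone, after its values were seen. Before adjustment, p was under 0.05 for 1282 (TH1) and 1316 (TH9) genes at 16h, for 673 (TH1) and 1557 (TH9) at 48h and for 323 in the average, and among the members only for Tlr3 at TH1 16h. Treatment effects were also compared between subsets and between times for each gene, in 24 differences. None was called, 2 had an unadjusted p under 0.05, and the smallest adjusted p from limma was 0.265.

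Groups did not overlap for 1 of 6 genes at TH1 16h and for 1 of 6 at TH9 48h, and they overlapped for all 6 at the other labels. In all genes, every cGAMP library lay above every Control library for 5.85% (TH1) and 1.62% (TH9) at 16h and for 2.2% (TH1) and 13.2% (TH9) at 48h. At TH9 48h the gene was Ddx58, with a log2 difference of 1.34 (standard error 0.67, adjusted p = 0.487 from limma). The median over all genes at this label was 0.50, and the Ddx58 difference was 0.63 after upper-quartile scaling, which brought the median of all genes to -0.02. At TH1 16h the gene was Tlr3, with 0.0773, 0.0532 and 0.0809 TPM in Control and 1.09, 2.19 and 0.106 TPM in cGAMP, a log2 difference of 0.86 (adjusted p = 0.596 from limma, standard error 0.35), or of 0.50 without TH1 16h cGAMP replicate 2. The summed markers of other cell types lay between 1.83 and 4.46 TPM in the Control libraries of this label and between 4.95 and 13.4 TPM in the cGAMP libraries, and their part in the Tlr3 values was not tested.

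**Figure D4:**
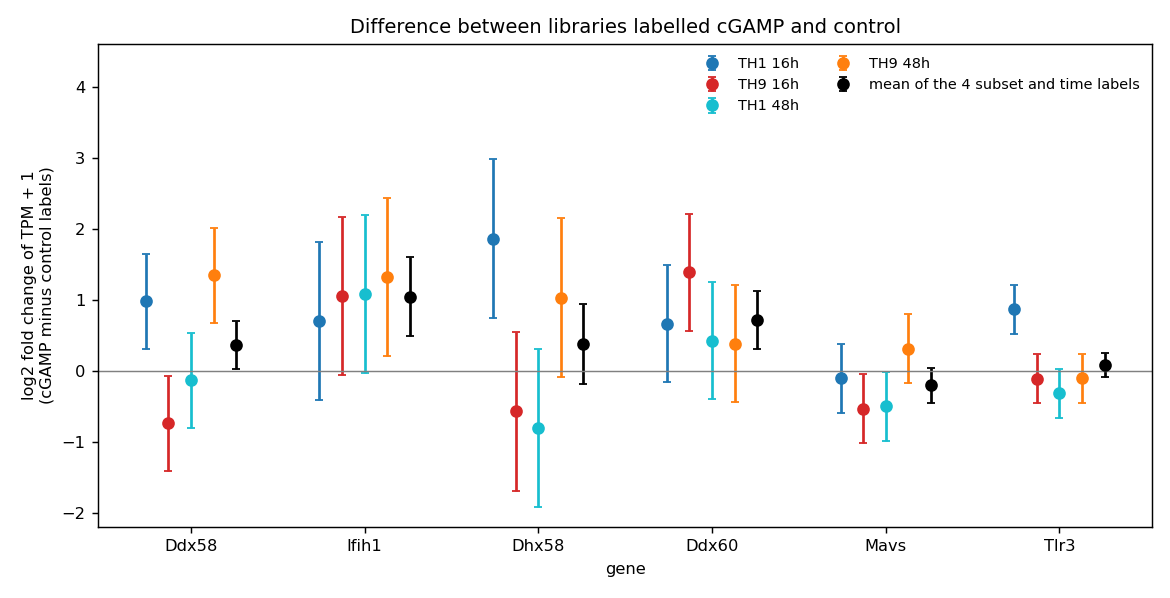
Difference of log2(TPM + 1) between libraries labelled cGAMP and Control for each gene (point, with bars of 1 standard error from limma), at the 4 subset and time labels (3 libraries against 3) and as their average (black). Ifih1 and Ddx60 lie above 0 at every label with wide errors, and Mavs and Tlr3 lie near 0 in the average.

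Subset labels did not separate these genes, nor did they separate the subset markers. Il9 differed by 2.25 (unadjusted p = 0.0978 from limma) and Tbx21 by -1.12 (unadjusted p = 0.186 from limma), and neither was called. Since these markers go against part of the labels, the comparison cannot show that the 6 genes are alike in TH1 and TH9 cells. The averaged difference of TH9 from TH1 lay between -0.25 and 0.07 for the 5 genes other than Tlr3, and limma called 0 of 6 (0% of all genes, 344 at an unadjusted p under 0.05). Tlr3 differed by -0.44 (standard error 0.17, unadjusted p = 0.0177, adjusted p = 1.00 from limma), with 12 TH9 libraries at up to 0.335 TPM.

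Time labels were not checked against any marker, and all libraries labelled 16h stand before all labelled 48h in the order of deposit. A difference of time and one of that order cannot be told apart here. Between 48h and 16h labels, limma called 2 of 6 genes lower, Ifih1 by -1.33 (standard error 0.56, adjusted p = 0.0410) and Mavs by -0.82 (standard error 0.24, adjusted p = 0.00564). The background was 64.9% of all genes, 57 higher and 10141 lower, and the median of all genes was -0.81, so Mavs lay at the median of all genes and Ifih1 below it. Ddx58 had -0.60, Ddx60 -0.52, Dhx58 -0.12 and Tlr3 0.02, with adjusted p-values from limma of 0.116 to 0.927. After upper-quartile scaling the median of all genes was 0.01 and limma called 194 genes higher and 108 lower. Ifih1 then had -0.38 (adjusted p = 0.786) and Mavs 0.09 (adjusted p = 0.799), and Ddx58, Dhx58 and Ddx60 turned to 0.45, 0.79 and 0.20. Neither call held on that scale. Without the 20 most abundant symbols the split was 129 higher and 345 lower.

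The call of Ifih1 also rested on single libraries. Its adjusted p from limma was 0.0591 to 0.0843 without replicate 1 or 2 of TH1 16h Control, replicate 3 of TH1 16h cGAMP, replicate 2 of TH9 16h Control, replicate 1 or 3 of TH9 16h cGAMP, replicate 1 or 3 of TH1 48h Control, replicate 2 of TH1 48h cGAMP, replicate 1 or 3 of TH9 48h Control or replicate 2 of TH9 48h cGAMP. Without TH9 16h cGAMP replicate 2, Ddx58 was called lower with -0.76 (adjusted p = 0.0455 from limma).

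The rest of the pathway gave the same counts between treatments. Of 30 genes that act with or after the cytosolic sensors (ubiquitin ligases, TRAF proteins, kinases and transcription factors), limma called 0 in either direction at any label and in the average, with 22 of 30 above 0 in the average and a median of 0.08 against 0.01 for all genes. Trim25, the ubiquitin ligase of RIG-I, had 0.44 (standard error 0.25, unadjusted p = 0.0912 from limma) and Irf7 had 1.25 (standard error 0.73, unadjusted p = 0.101 from limma). Of 12 other RNA-binding antiviral proteins, limma called 0, with 12 of 12 above 0 and a median of 0.49. In the average, 53.4% of all genes lay above 0. Some of the 12 are interferon-stimulated genes that varied together, so they are not 12 separate results. Ifit1, which blocks translation of viral RNA, had 0.86 (standard error 0.42, unadjusted p = 0.0531 from limma), and Oas3, an oligoadenylate synthetase activated by double-stranded RNA, had 1.10 (standard error 0.59, unadjusted p = 0.0751 from limma). Of 4 tested genes of endosomal Toll-like receptors and their adaptors, limma called 0, with Tlr7, a receptor of single-stranded RNA, at 0.77 and the adaptor Myd88 at 0.17. The adjusted p from limma was 1.00 for each of these genes.

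Between 48h and 16h labels most of these genes were called lower on the deposited scale, as most genes were. Of the 30, limma called 25 lower, from Zcchc3 (-0.67) to Dhx15 (-1.54), with a median over the list of -1.09. They were the kinases Tbk1, Ikbke and Ikbkb, their subunit or scaffold genes Ikbkg and Tank, the transcription factors Irf3, Rela and Nfkb1, the TRAF genes Traf2, Traf3 and Traf6, the death-domain and caspase genes Tradd, Fadd, Ripk1 and Casp8, the ubiquitin-pathway genes Trim25, Trim14, Itch, Smurf1, Cyld and Tnfaip3, and the RNA-binding genes Zc3hav1, Pcbp2, Dhx15 and Zcchc3. Among the 12 RNA-binding proteins it called 6 lower (Adar, Ddx1, Ddx3x, Dhx9, Dhx36 and Eif2ak2), and among the 4 endosomal genes 2 (Myd88 and Ticam1, the adaptor of TLR3). After upper-quartile scaling these counts were 0 of 30, 1 of 12 and 0 of 4, with 13 of the 30 genes above 0, and the 64.9% of all genes called on the deposited scale stands beside each count.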

How the data were processed

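RNA was measured in 24 libraries of mouse CD4 T cells, 3 for each of 8 deposited labels. Total RNA was depleted of ribosomal RNA and made into stranded libraries. The authors trimmed reads with Trimmomatic and assigned them with kallisto on mm10, and ran DESeq2 (no version was given in the sources used here). Deposited values are TPM, 1 for each of 35492 symbols and library, and keep no depth. Libraries were grouped by their labels only.

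log2(TPM + 1) values of the 15720 genes that reached 1 TPM in 3 or more libraries were compared with limma 3.58.1 (R 4.3.3) with an intensity trend, in 1 fit with a mean per label and 7 contrasts, two-sided, at a Benjamini-Hochberg adjusted p under 0.05. The pseudocount understates changes of low genes. DESeq2 needs counts and was not run. Pearson's r and Spearman's rho over the libraries carry two-sided permutation p-values (100000 resamples, numpy 2.4.6, scipy 1.17.1), adjusted over 15 pairs. The fit was tested on simulated data, where recovery of changes was required only at a spread well below the observed one. That test does not show what the fit can recover at the observed spread. Coordinates are those of GENCODE for GRCm38.

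The members, gene lists and tests were chosen with earlier results of these data known. Genes named are the 6 members, the 3 genes most like each by rho (predicted genes passed over), the 2 with the smallest p in the averaged treatment contrast of each of 3 pathway lists (a gene of 2 lists counts in both), list genes called in any contrast, and Irf7, Isg15, Tbx21 and Il9. Some genes of the lists are not reported here and were left out of the list counts. Alternatives were pseudocounts of 0.1 and 10, no filter, a mean of at least 2 TPM, only the libraries compared, a replicate block, upper-quartile scaling, leaving out the 20 most abundant symbols and leaving out each library.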

Additional observations from a re-analysis of the deposited data

How the results depend on the processing

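Of 1307 alternatives tried on single values and pairs, 1178 kept direction and side of the threshold, and of the 371 that left out no library, 330 did. The cause of a change was not tested. Differences are on the log2 scale. With a pseudocount of 0.1, Mavs turned to -0.0035 (TH9 against TH1), Dhx58 to 0.14 (48h against 16h), and Ifih1-Dhx58 had an adjusted permutation p of 0.0530. With a pseudocount of 10, Tlr3 turned to -0.0020 (48h against 16h) and Dhx58-Mavs to r = 0.044. Upper-quartile scaling turned Mavs to 0.014 at TH1 16h and -0.26 at TH9 48h, Ddx58 to 0.094 at TH1 48h, Ddx60 to -0.19 at TH9 48h, and, for TH9 against TH1, Ddx58 to -0.019 and Mavs to -0.094. For 48h against 16h it gave 0.45 for Ddx58, 0.79 for Dhx58, 0.20 for Ddx60 and 0.086 for Mavs, and r of -0.46 for Ddx58-Mavs, 0.075 for Ifih1-Tlr3, 0.089 for Ddx60-Tlr3 and 0.21 for Mavs-Tlr3. Without the 20 most abundant symbols, Mavs had 0.013 at TH1 16h and -0.39 at TH9 48h, Ddx58 0.25 at TH1 48h, Ddx60 -0.33 at TH9 48h, and, for TH9 against TH1, Ddx58 -0.013 and Mavs -0.096. The difference of 48h from 16h was 0.32 for Ddx58, 0.80 for Dhx58, 0.16 for Ddx60, -0.55 for Ifih1 and -0.043 for Mavs, with no call, and r was -0.52 for Ddx58-Mavs, -0.68 for Ifih1-Mavs, -0.67 for Ddx60-Mavs, 0.063 for Ifih1-Tlr3, 0.072 for Ddx60-Tlr3 and 0.22 for Mavs-Tlr3. With no filter, the call of Ifih1 at 48h against 16h was lost (adjusted p = 0.110 from limma).

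Counts of genes called moved as follows. At TH1 16h, 1 gene became 0 with only the libraries compared, a filter at a mean of 2 TPM or a pseudocount of 0.1, 2 with a pseudocount of 10 and 37 with no filter. At TH9 16h the count was 1 with a pseudocount of 10, at TH1 48h 1 with a pseudocount of 0.1 and 2 without the 20 most abundant symbols, and at TH9 48h 6 with no filter and 2 without those symbols. For 48h against 16h it was 302 after upper-quartile scaling and 474 without those symbols.

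Replicate numbers were not read as pairs, since the deviations of same-numbered libraries correlated above 0.1 in 2 of 12 pairs, measured from means of labels that the markers go against. With a replicate block, the count at TH1 16h was 0 and Ifih1 lost its call at 48h against 16h (adjusted p = 0.0515 from limma), and no other call of a member changed.

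With 1 library left out, the genes called numbered 0 to 9 (TH1) and 0 to 24 (TH9) at 16h, 0 to 2 at TH1 48h and at TH9 48h, 0 to 1 in the averaged treatment and subset contrasts, and 9458 to 10826 for 48h against 16h. Members with a change of sign gave these ranges. The treatment difference at TH1 16h ran from -0.40 to 1.65 for Ifih1, from -0.32 to 0.14 for Mavs. The averaged treatment difference ran from -0.0097 to 0.18 for Tlr3. The difference of TH9 from TH1 ran from -0.077 to 0.23 for Ddx58, from -0.42 to 0.15 for Ifih1, from -0.48 to 0.082 for Dhx58, from -0.23 to 0.18 for Ddx60, from -0.076 to 0.14 for Mavs. The difference of 48h from 16h ran from -0.45 to 0.12 for Dhx58, from -0.083 to 0.11 for Tlr3. The treatment difference at TH9 16h ran from -1.85 to 0.76 for Dhx58, from -0.17 to 0 for Tlr3. The treatment difference at TH1 48h ran from -0.74 to 0.38 for Ddx58, from -0.11 to 1.11 for Ddx60. The treatment difference at TH9 48h ran from -0.16 to 0.66 for Mavs, from -0.19 to 0.020 for Tlr3. The r of gene pairs ran from -0.13 to 0.18 for Ddx58-Tlr3, from -0.070 to 0.12 for Ifih1-Tlr3, from -0.14 to 0.071 for Dhx58-Mavs, from -0.11 to 0.068 for Ddx60-Tlr3, from -0.21 to 0.077 for Mavs-Tlr3.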

Other observations

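Other genes for RNA-binding antiviral proteins also varied with the sensors from library to library. The gene of that list nearest to each sensor was an oligoadenylate synthetase. By Spearman's rho over 24 libraries, and chosen after the values were seen, Oas1a was nearest to Ifih1 (0.919), Oas2 to Ddx60 (0.879) and Oas3 to both Ddx58 (0.823) and Dhx58 (0.744). The median over the 12 genes of the list was 0.776 for Ifih1, 0.724 for Ddx60, 0.417 for Ddx58 and 0.270 for Dhx58. Mavs had 0.117 with the same list, and 0.707 with the 30 genes that act with or after the cytosolic sensors, against a median of 0.617 over all tested genes.

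T cell genes varied most closely with Mavs. The median rho of the 5 T cell identity genes was 0.843 with Mavs, and the highest was Cd4 (0.897), while it was 0.294 with Ddx58, 0.170 with Dhx58, 0.123 with Ifih1, -0.10 with Ddx60 and -0.14 with Tlr3. Over all tested genes the median was 0.617 with Mavs, 0.288 with Ddx58, 0.150 with Dhx58, 0.161 with Ifih1, -0.002 with Ddx60 and -0.10 with Tlr3. Among 6 subset markers, Il12rb2, the signaling chain of the IL-12 receptor, had the highest rho, 0.730 with Dhx58 and 0.643 with Ddx58. The median over the 6 markers was 0.113 with Dhx58 and 0.293 with Ddx58, and Tbx21 had 0.277 and 0.334. These are descriptions of 24 libraries that share the TPM scale, with no test.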
